A study of Mus with 438 samples.

Results

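Inferior cones with little M opsin RNA are the subject of this account. They were taken from single cone photoreceptors picked from the inferior retina of control mice at postnatal day 21 (P21), postnatal day 60 (P60) and in a collection labelled 2 months (2m). A cell with Opn1mw (M opsin) under 100 CPM (counts scaled to a common library size) was put on the low-M side, and a cell with 1000 CPM or more on the high-M side. This gave 76 of the 95 inferior control cones of these ages, with 15 low-M cells (3 at P21, 1 at P60 and 11 at 2m) and 61 high-M cells (14, 14 and 33). The other 19 cells lay between the limits, and the whole table held 430 libraries.

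The mice were C57BL/6 with the genotype Trb2Cre-het:Ai6, with Cre expressed from Thrb, the gene of thyroid hormone receptor beta, and a green reporter, so cells of both sides carried 1 copy of the driver allele. Knockout cones set beside them were Trb2Cre-KO:Ai6 cells of the 2m age (48 inferior and 50 superior), and superior control cones came from the same genotype as the low-M cells. Each library came from 1 fluorescent cell drawn into a pipette, and the labels name no animal. Cells of 1 collection may therefore share an animal, and the collection was the unit of every test.

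Cones detect light with opsins that drive the transducin and phosphodiesterase cascade. Most cones of the mouse retina make both M and S opsin, with M opsin favoured in the superior and S opsin in the inferior retina, and a minority of cones, enriched in the inferior retina, are known as S cones that lack M opsin. Thyroid hormone receptor beta 2, a product of Thrb, is needed for M opsin expression and restrains S opsin.

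The values that chose the cells are given as a description. Low-M cells had 1.11 to 3.13 CPM of Opn1mw at P21, 2.38 CPM in the P60 cell and 0.916 to 20.3 CPM at 2m (median 1.85). High-M cells had 1336 to 7268 CPM at P21, 1006 to 6938 CPM at P60 and 1322 to 15834 CPM at 2m. The highest low-M cell had 20.33 CPM and the next cell above it 169 CPM, so that no cell lay near the lower limit. The upper limit cut through a filled range, with 972.3 CPM in the cell just below it and 1006 CPM in the cell just above it. None of the 95 cells was at 0, whereas 40 of 48 knockout inferior cones were.

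Low-M cells made up 12.5% of inferior cones at P21 (3 of 24, exact 95% Clopper-Pearson interval 2.66% to 32.4%), 4.76% at P60 (1 of 21, 0.12% to 23.8%) and 22% at 2m (11 of 50, 11.5% to 36%). The intervals overlap, and they cover counting error only. In P8 inferior control cones the share was 66.7% (16 of 24), and 0 of 53 superior control cones at 2m were under the limit, an exact upper bound of 6.72%.

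**Figure D1:**
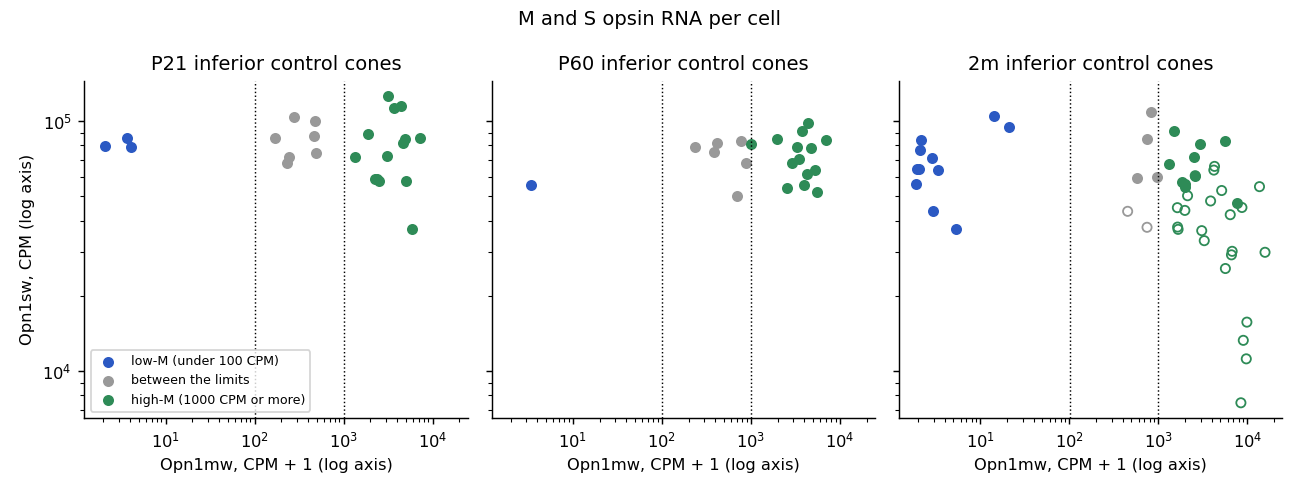
Each point is 1 inferior control cone, with Opn1mw (CPM + 1) on the x axis and Opn1sw (CPM) on the y axis, both log axes, and a panel per collection. Dotted lines mark 100 and 1000 CPM, and open points are 2m cells numbered 1 to 25. The low-M cells stand left of an empty stretch from 20.33 to 169 CPM, and each of the 11 low-M cells at 2m is a filled point.

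Several libraries and groups of cells stood apart. The only low-M cell of P60 had 13004 CPM of Gnat1 (rod transducin), against at most 935 CPM in the 14 P60 high-M cells. It also had 2305 CPM of the cone gene Arr3, and its makeup was not resolved further. With 1 cell on its side, P60 did not enter the test. At 2m, the cells numbered 1 to 25 held 0 low-M and 23 high-M cells, and those numbered 26 to 50 held 11 low-M and 10 high-M cells. Xist, an RNA of female cells, was over 1 CPM in 1 of 11 low-M cells, against 0 of 10 high-M cells numbered 26 to 50 and 15 of 33 high-M cells in all. The number is part of each cell's title and is not a labelled batch or animal. The part of these number sets in the 2m results cannot be told apart from that of the side over all cells. Many 2m values are therefore also given against the 10 high-M cells of the same numbers. Those set against all 33 high-M cells alone keep this limit. Cells numbered 38 to 50 (6 low-M, 4 between the limits and 3 high-M) had fewer genes than those numbered 26 to 37 (5 low-M and 7 high-M), and these ranges, chosen after the genes per cell were seen, are given beside the results they touch.

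Reads per cell were of the same order on both sides, with medians of 1.92e+06 in low-M and 1.81e+06 in high-M cells at P21, and of 1.54e+07 and 1.34e+07 at 2m. The number of genes detected differed at 2m. After thinning each cell to 900000 reads, the low-M cells had a median of 2641 genes, against 3688 in all high-M cells and 3560 in those numbered 26 to 50. Within a number range the sides overlapped throughout. Of cells numbered 26 to 37, low-M cells had 3182 to 4175 genes (median 4035), against 3157 to 4724 (median 3944) in high-M cells. Of those numbered 38 to 50, low-M cells had 1606 to 2641 (median 2152), against 1599 to 2516 (median 2143) in high-M cells and 1851 to 2267 in the 4 cells between the limits. At P21 the medians were 3486 genes in low-M cells and 3243 in high-M cells.

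S opsin was high in every low-M cell. Opn1sw, on chromosome 6 (29376671 to 29380513, GRCm38), had 79652, 85628 and 78585 CPM in the 3 low-M cells of P21, against 37189 to 125682 CPM (median 77244) in high-M cells. At 2m it had 36953 to 104561 CPM (median 64539) in low-M cells, against 7466 to 91102 CPM (median 46951) in all high-M cells. The ranges overlapped in both collections. Against the 10 high-M cells numbered 26 to 50, whose median was 63714 CPM, the log2 difference in means was 0.05, and it was 0.04 at P21. The P60 low-M cell had 55420 CPM, against a mean of 73022 CPM in high-M cells (difference -0.40). The mean difference over P21 and 2m was 0.30 with an SE of 0.15 (limma, n = 2 pairs, adjusted p = 0.699). The exact two-sided sign-flip p was 0.5, the smallest that 2 pairs allow. The mean in 2m low-M cells was 69156 CPM, next to 73742 CPM in knockout inferior cones. Ccdc136, whose gene neighbours Opn1sw, had a mean of 2672 CPM in low-M and 2653 CPM in high-M cells at P21, and of 1561 and 1800 CPM at 2m (mean difference -0.10, SE 0.25, limma adjusted p = 0.961).

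The receptor's own RNA was variable on both sides. Thrb, on chromosome 14 (17659225 to 18040097), had 52.5, 0 and 778 CPM in the low-M cells of P21, against 0 to 691 CPM (median 112) in high-M cells, so that the low-M cells spanned the whole range. At 2m it was over 1 CPM in 4 of 11 low-M cells (mean 32.3 CPM), against 24 of 33 high-M cells (mean 215 CPM). Against the high-M cells numbered 26 to 50, where 5 of 10 were over 1 CPM, the means were 32.3 CPM in both and the difference was -0.00. The mean log2 difference of -1.23 (SE 0.82, n = 2 pairs, limma adjusted p = 0.748) thus rested on the high-M cells numbered 1 to 25, and was 0.11 without them. Within 2m numbers 26 to 37 the difference was -0.10, with 1 of 5 low-M and 4 of 7 high-M cells over 1 CPM. Within 38 to 50 it was 2.30, with 3 of 6 low-M, 3 of 4 between the limits and 1 of 3 high-M cells. The P60 low-M cell had 27.8 CPM, against a mean of 171 CPM in high-M cells (difference -2.58). The exact two-sided sign-flip p was 1. Knockout inferior cones had Thrb over 1 CPM in 18 of 48 cells with a mean of 33.9 CPM. A gene total does not separate the disrupted part of the gene from the rest, so this value is no check of the label.

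The low-M cells carried cone RNA. Gnat2, the cone transducin that relays the opsin signal, had 5305 to 17785 CPM in all 15 low-M cells, against 4434 to 15001 CPM in the 61 high-M cells. Of 20 tested genes of cone phototransduction, 0 passed the test and 0 passed the size rule, a description without a test that asks for at least a 2-fold difference in the same direction in both collections. The higher side must also average 10 CPM or more, with 25% or more of its cells over 1 CPM. The median log2 difference of the list was -0.20, beside -0.58 over all genes tested. Arr3, the cone arrestin that quenches activated opsin, had 7012, 4563 and 3880 CPM in low-M cells of P21, against 1045 to 9331 CPM in high-M cells. At 2m it had 1291 to 8916 CPM (median 3246) in low-M cells, against 2266 to 15187 CPM (median 6134) in high-M cells and 3759 to 9622 CPM (median 5701) in those numbered 26 to 50. Of cells numbered 26 to 37 the medians were 3219 CPM in low-M and 4688 CPM in high-M cells (log2 difference in means -0.87). Of those numbered 38 to 50 they were 3306 and 6962 CPM (-0.85), with 8371 CPM in the 4 cells between the limits. In knockout inferior cones the median was 1770 CPM. The ranges of the sides overlapped, and the mean difference was -0.52 (SE 0.23, n = 2 pairs, limma adjusted p = 0.662). Pde6h, the inhibitory subunit of cone phosphodiesterase, had a median of 1722 CPM in 2m low-M cells, against 2810 CPM in high-M cells numbered 26 to 50, and of 2505 and 2956 CPM at P21.

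Across all genes, the test made no call. Of 8992 genes that averaged 5 CPM or more, 0 (0%) passed limma with collection as a block at an adjusted p of 0.05, and 659 (7.33%) had an unadjusted p under 0.05. The fit rested on 2 pairs. edgeR on the recovered reads also called 0 genes, with 135 at an unadjusted p under 0.05, whereas DESeq2 called 48 higher and 273 lower. By the size rule 160 genes (1.78%) were higher and 344 (3.83%) lower in low-M cells. Means over 3 and 11 low-M cells were set against means over 14 and 33 high-M cells, and the part of this unequal number was not tested. The median log2 difference over all genes tested was -0.41 at P21 and -0.34 at 2m, and -0.00 at 2m against the 10 high-M cells numbered 26 to 50. Of the 344 lower genes, 133 were over 1 CPM in 0 of the 3 P21 low-M cells.

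A list drawn from other cells gave a comparison that does not use M opsin. It held 44 genes, taken from superior cones alone as at least 4-fold lower in knockout than in both 2m and P60 control superior cones, leaving out Opn1mw and Thrb. Each also averaged 10 CPM or more, and was over 1 CPM in 25% or more of cells, in both control groups. None of the cells compared here entered the list. Of its 43 tested genes, 0 passed limma, 8 passed the size rule as lower in low-M cells (18.6%, beside 3.83% of all genes tested) and 0 as higher. The size rule asks for the levels that the list asked of superior controls. All genes tested needed only a mean of 5 CPM, so these shares are not like for like. The median log2 difference was -1.11 at P21 and -1.28 at 2m, and -1.21 at 2m against the high-M cells numbered 26 to 50, beside -0.41, -0.34 and -0.00 over all genes tested. At 2m 38 of the 43 had a difference below 0 (88.4%, beside 59.9% of all genes tested), and 28 (65.1%, beside 50.2%) against the high-M cells of the same numbers. The 2 number ranges differed. Within cells numbered 26 to 37 the list's median was -1.54 with 34 of 43 below 0 (79.1%, beside a median of -0.01 and 50.2% of all genes tested). Within those numbered 38 to 50 it was 0.10 with 15 of 43 below 0 (34.9%, beside 0.02 and 31%). At P21 26 of 43 were below 0 (60.5%, beside 59%).

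**Figure D2:**
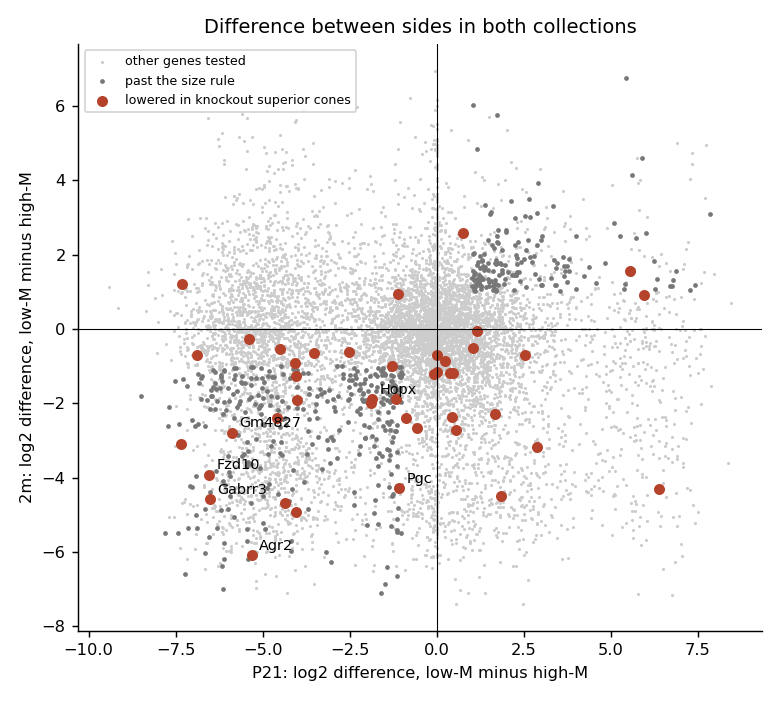
Each point is 1 tested gene, with the log2 difference in mean CPM + 1 of low-M minus high-M cells at P21 on the x axis and at 2m on the y axis. Dark grey points passed the size rule and red points are knockout-lowered genes, of which 8 lie in the lower left past 1 on both axes and pass the size rule.

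The 8 genes were Agr2, Gm4827, Pgc, Hopx, Fzd10, Itm2c, Gabrr3 and E130218H05. Agr2 encodes an endoplasmic reticulum protein of the disulfide isomerase family (chromosome 12, 35992925 to 36004081). It was 0 CPM in all 3 low-M cells of P21 and in the P60 cell, and 0.174 to 1.41 CPM in the 11 low-M cells of 2m. In high-M cells it was over 1 CPM in 5 of 14 at P21 (up to 181 CPM), 7 of 14 at P60 (up to 121 CPM) and 20 of 33 at 2m (up to 513 CPM), with 5 of 10 among those numbered 26 to 50. Low-M cells thus stayed within the low end of the high-M range, and knockout inferior cones had 0 of 48 cells over 1 CPM.

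Gm4827, a predicted gene on chromosome 16 (50019658 to 50072852), was 0 CPM in the 3 low-M cells of P21, against over 1 CPM in 11 of 14 high-M cells (median 47 CPM). At 2m it was over 1 CPM in 1 of 11 low-M cells (36.4 CPM), against 27 of 33 high-M cells and 8 of the 10 numbered 26 to 50 (median 48.2 CPM). Of cells numbered 26 to 37 it was over 1 CPM in 0 of 5 low-M and 7 of 7 high-M cells. Of those numbered 38 to 50 this was 1 of 6 low-M, 2 of 4 between the limits and 1 of 3 high-M cells. The P60 low-M cell had 21.4 CPM, within the high-M range of 0 to 168 CPM. Over all 3 collections 2 of 15 low-M cells (13.3%) were over 1 CPM, against 50 of 61 high-M cells (82%). These pooled counts mix collections, and 2m cells numbered 1 to 25 gave 23 of the high-M and 0 of the low-M cells. In knockout inferior cones 1 of 48 was over 1 CPM.

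Pgc encodes progastricsin, an aspartic protease precursor (chromosome 17, 47726842 to 47734478), and its sides overlapped less at 2m than at P21. Its values in the low-M cells of P21 were 11.1, 0 and 14.1 CPM, inside the high-M range of 0 to 99.6 CPM. At 2m 1 of 11 low-M cells was over 1 CPM (8.23 CPM), against 30 of 33 high-M cells and 8 of the 10 numbered 26 to 50 (median 31.7 CPM). Within numbers 26 to 37 this was 1 of 5 low-M against 7 of 7 high-M cells. Within 38 to 50 it was 0 of 6 low-M, 3 of 4 between the limits and 1 of 3 high-M cells. All 48 knockout inferior cones were at 0 for Pgc.

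Hopx, a small homeodomain protein that does not bind DNA itself (chromosome 5, 77086986 to 77115123), had 67.5, 0 and 120 CPM in low-M cells of P21, against 0.682 to 437 CPM (median 227) in high-M cells. At 2m it was over 1 CPM in 5 of 11 low-M cells (median 0.32 CPM, highest 157), against 31 of 33 high-M cells (median 165 CPM) and 8 of the 10 numbered 26 to 50 (median 170 CPM). Within numbers 26 to 37 this was 1 of 5 low-M against 5 of 7 high-M cells. Within 38 to 50 it was 4 of 6 low-M, 0 of 4 between the limits and 3 of 3 high-M cells. E130218H05, which the annotation used does not place, was over 1 CPM in 4 of 11 low-M cells at 2m, against 31 of 33 high-M cells and 8 of the 10 numbered 26 to 50. Within numbers 26 to 37 this was 1 of 5 low-M against 5 of 7 high-M cells. Within 38 to 50 it was 3 of 6 low-M, 0 of 4 between the limits and 3 of 3 high-M cells. In that range low values of Hopx and E130218H05 were thus not particular to low-M cells.

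Fzd10, a Wnt receptor of the Frizzled family, was over 1 CPM in 0 of 3 low-M cells at P21 and 0 of 11 at 2m, against 5 of 14 and 11 of 33 high-M cells. Among high-M cells numbered 26 to 50 it was over 1 CPM in 1 of 10. A count of 0 of 15 low-M cells over all collections has an exact upper bound of 21.8%, which covers counting error only. Itm2c, an integral membrane protein, had means of 91 CPM in low-M and 206 CPM in high-M cells at P21, and of 23.9 and 90.3 CPM at 2m (77.3 CPM in those numbered 26 to 50). Gabrr3, a subunit of a GABA receptor, had means of 3.34 CPM in low-M and 103 CPM in high-M cells at 2m. Against the high-M cells numbered 26 to 50, whose mean was 0.65 CPM, its difference turned to 1.39.

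**Figure D3:**
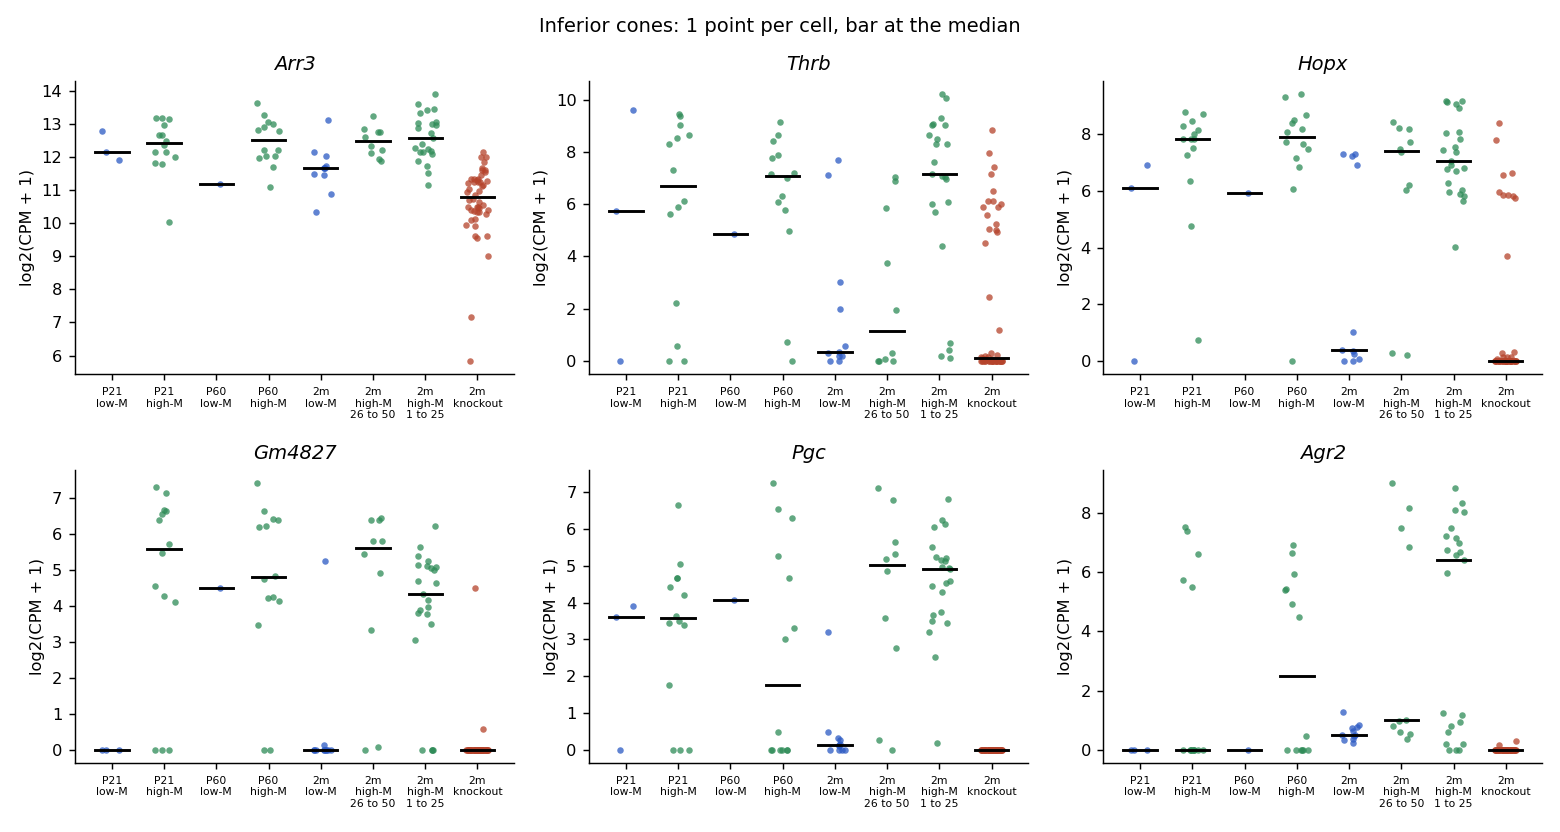
Each point is 1 inferior cone and each bar a median, on a log2(CPM + 1) scale, for Arr3, Thrb, Hopx, Gm4827, Pgc and Agr2. Low-M cells (blue) stand left of the high-M cells (green) of their collection, 2m high-M cells are split by cell number, and knockout cells (red) are on the right. Pgc and Gm4827 were each over 1 CPM in 1 of the 11 low-M cells of 2m.

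Counted within each cell, fewer of the 44 genes were over 1 CPM in most 2m low-M cells than in most 2m high-M cells, while the cells between the limits spanned both. Low-M cells of 2m had 6 to 15 of the genes over 1 CPM (median 8), against 3 to 27 (median 19) in all high-M cells and 3 to 27 (median 17.5) in those numbered 26 to 50. The 6 cells between the limits had 2 to 27 (median 9). The highest low-M cell, with 15, was matched or undercut by 6 of 33 high-M cells in all and by 4 of the 10 numbered 26 to 50. Of cells numbered 26 to 37, low-M cells had 6 to 15 (median 11), against 11 to 27 (median 19) in high-M cells. Of those numbered 38 to 50, low-M cells had 6 to 9 (median 7), against 3, 9 and 13 in high-M cells and 2 to 11 (median 5.5) in the 4 cells between the limits. In that range a low count was thus not particular to low-M cells. Knockout inferior cones had 2 to 15 (median 7). At P21 the low-M cells had 16, 17 and 22 genes, against 12 to 27 (median 16) in high-M cells, and no lower count was seen. The P60 low-M cell had 16, against 16 to 27 (median 22). After thinning to 900000 reads the medians at 2m were 11 in low-M cells, 22 in all high-M cells and 20.5 in those numbered 26 to 50. The median number of all genes detected after thinning was also lower in low-M cells over all 2m cells (2641, against 3688). Within numbers 26 to 37 the medians were 4035 in low-M and 3944 in high-M cells, with overlapping ranges. The part of the number of genes detected in this count was not tested. The difference between P21 and 2m was not tested, since each is 1 collection.

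**Figure D4:**
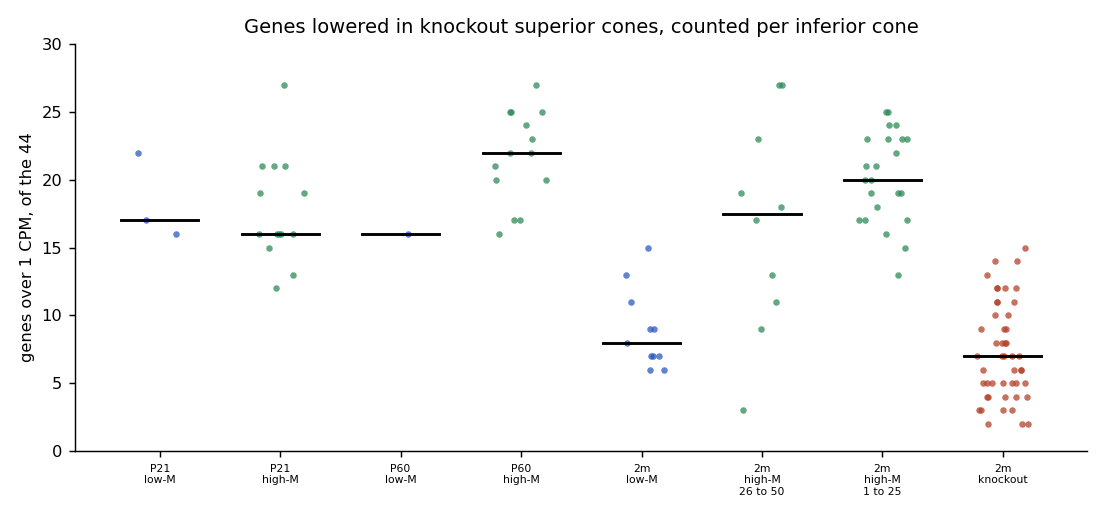
The y axis is the number of the 44 knockout-lowered genes over 1 CPM in a cell, with 1 point per inferior cone and a bar at the median of each group. The 2m low-M cells have a median of 8, beside 3 to 27 in the high-M cells numbered 26 to 50, and the 3 P21 low-M cells have 16, 17 and 22.

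For the genes raised in knockout superior cones, the median count per cell in low-M cells was above that of high-M cells at P21. At 2m it was below that of all high-M cells, and above that of high-M cells within both number ranges. This list, made from the same superior cones with the direction turned round and without Opn1sw and Xist, held 24 genes, of which 20 were tested and 0 passed limma or the size rule. Per cell, low-M cells of 2m had 1 to 12 of them over 1 CPM (median 5), against 2 to 11 (median 7) in high-M cells, and knockout inferior cones had 4 to 16 (median 10). Of cells numbered 26 to 37, the median was 9 in low-M and 7 in high-M cells. Of those numbered 38 to 50, it was 4.5 in low-M cells, 3 in high-M cells and 5 in the 4 cells between the limits. At P21 the low-M cells had 9 to 12 (median 10), against 3 to 12 (median 5.5) in high-M cells. The list's median log2 difference at P21 was 0.86, beside -0.41 over all genes tested. At 2m it was -1.81, beside -0.34, and -0.02 against the high-M cells numbered 26 to 50, beside -0.00. Nrxn3, a presynaptic adhesion protein on this list, was over 1 CPM in 2 of 3 low-M cells of P21 and 3 of 11 of 2m, against 2 of 14 and 8 of 33 high-M cells, and in 36 of 48 knockout inferior cones.

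Of 11 tested genes of the thyroid hormone pathway, 0 passed limma, 1 was higher and 1 lower by the size rule. Of all genes tested, 1.78% were higher and 3.83% lower by that rule. With 1 member in each direction, the count is not read as a result about the pathway. Thra, which encodes the other thyroid hormone receptor, had 13.8 to 187 CPM in the 3 low-M cells of P21 (mean 86.4 CPM), against 0 to 99 CPM in high-M cells (mean 35.2 CPM). At 2m its mean was 65.8 CPM in low-M cells, against 25.4 CPM in high-M cells and 18.4 CPM in those numbered 26 to 50. Klf9, a transcription factor gene that responds to thyroid hormone, was over 1 CPM in 1 of 3 and 1 of 11 low-M cells, against 8 of 14 and 12 of 33 high-M cells, at P21 and 2m in that order. The limma adjusted p was 0.820 for Thra and 0.755 for Klf9, and in the P60 cell both differences had the opposite sign (-4.29 for Thra and 1.62 for Klf9, beside a median of -2.98 over all genes tested).

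Photoreceptor transcription factors (17 tested), synaptic terminal genes (25), outer segment and cilium genes (22), glycolysis (17), mitochondrial respiration (22) and stress genes (11) had 0 members past either rule. Their median differences lay between -0.34 and -0.06. Of 3 tested ventral patterning genes 0 passed. Vax2, a ventral homeodomain factor, was over 1 CPM in 0 of 3 and 0 of 11 low-M cells, against 4 of 14 and 6 of 33 high-M cells, and was 174 CPM in the P60 low-M cell. Of 4 measured dorsal patterning genes 0 reached the level needed for the test.

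Markers of other retinal cells were checked on both sides. The 16 rod genes, some of which cones also express, summed to 13954 to 37626 CPM in low-M and 16091 to 34442 CPM in high-M cells of 2m, beside 94202 to 251301 CPM in rods. At P21 the sums were 13466 to 17829 CPM in low-M and 13989 to 45851 CPM in high-M cells. Gnat1 had a median of 2.34 CPM and a highest value of 3098 CPM in low-M cells of 2m, against 3.47 and 4872 CPM in high-M cells. Of 7 tested genes of Müller glia, 1 was higher by the size rule, beside 1.78% of all genes tested. This was Apoe, a lipid carrier, with a mean of 168 CPM in low-M and 64.9 CPM in high-M cells of 2m. The 8 measured Müller genes summed to 1.28 to 4435 CPM in low-M and 7.61 to 4146 CPM in high-M cells of 2m. Tested genes of bipolar (4, with a median difference of 1.43 at 2m and 1.28 against numbers 26 to 50, and 0 of 4 below 0 at 2m), amacrine (2), horizontal (1), ganglion (3) and microglial (1) cells had 0 members past either rule. The 5 measured bipolar markers summed to 1.82 to 2448 CPM (median 806) in low-M cells of 2m, against 0.154 to 1389 CPM (median 294) in high-M cells and 1.02 to 1010 CPM (median 432) in those numbered 26 to 50. Of markers of endothelium and blood 1 was measured and 0 tested, and of pigment epithelium 0 were measured. The part of RNA from other cells in the differences was not tested.

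The genes with the largest differences in both collections were mostly seen in few cells. Among the 12 named as lower, Xiap, an inhibitor of caspases, was over 1 CPM in 0 of 3 and 1 of 11 low-M cells, against 11 of 14 and 21 of 33 high-M cells. In the high-M cells numbered 26 to 50 it was over 1 CPM in 4 of 10, and in knockout inferior cones in 22 of 48. Gapvd1, which regulates endocytic traffic, was over 1 CPM in 0 of 3 and 0 of 11 low-M cells, against 7 of 14 and 16 of 33 high-M cells. Also over 1 CPM in 0 of 14 low-M cells of P21 and 2m were Sntg2, Clcn7 (a lysosomal chloride transporter), Chmp3 (of the membrane-cutting ESCRT machinery), 0610037L13Rik, Ccz1, Exosc9 (of the RNA exosome), D3Ertd751e and Nucb2. Acad9 and Utp11l completed the 12, and Acad9 turned to 0.71 against the 2m high-M cells numbered 26 to 50.

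Among the 12 named as higher, Bcl2l1, which encodes the survival factor Bcl-xL, was over 1 CPM in 3 of 3 and 6 of 11 low-M cells, against 3 of 14 and 9 of 33 high-M cells, and 1 of the 10 numbered 26 to 50. Its values in the low-M cells of P21 were 594, 2.27 and 534 CPM, and the P60 low-M cell had 356 CPM. Knockout inferior cones had Bcl2l1 over 1 CPM in 23 of 48. Eml1, a microtubule-associated protein, was over 1 CPM in 3 of 3 and 3 of 11 low-M cells, against 3 of 14 and 8 of 33 high-M cells. The others were 2610021A01Rik, Gltp, Ttc25, Clock (a core factor of the circadian clock), Tdrkh, Smc5, Gna13, Ddx20, Elp2 and C630043F03Rik.

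The authors' region lists were set beside these genes. Regions bound by the tagged receptor in embryonic retina lay within 50 kb of 43.2% of the placed lower genes of the size rule and 37.2% of the higher ones, beside 39.3% of all genes tested. Regions listed as induced in P30 cones lay near 37.9% and 39.7%, beside 36%. These shares are near those of all genes. For the 44 knockout-lowered genes, of which 43 were placed, the shares were 72.1% for bound and 88.4% for induced regions. Agr2 had 4 induced regions within 50 kb, Gm4827 4, Pgc 6 and Hopx 2, and bound regions numbered 0, 0, 4 and 1.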

How the data were processed

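Gene values were deposited by the authors as CPM per cell, relative to all reads of that cell's library. STAR 2.7.3a is named in the submitters' processing notes, while the sources used here give no counter, annotation or gene filter. In each library the 10390 genes summed to 80% to 93% of the reads. Values were whole multiples of the value of 1 read (100% within 0.1 reads), and whole reads were recovered for the count tools. In 5 libraries the step lies near a round decimal and was read in the same way. Reads had no molecular identifiers, so intervals cover counting error only. The deposited region lists hold positions, used as counts of regions within 50 kb of RefSeq gene intervals (GRCm38.p6). A further p-value column of the authors was not used.

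The cells of a side in a collection were averaged. Differences are low-M minus high-M of log2(mean CPM + 1), and limma 3.58.1 in R 4.3.3 tested them with a block for collection and a mean trend in its empirical Bayes step. P-values were adjusted by Benjamini-Hochberg over the genes averaging 5 CPM or more. A collection needed 3 cells per side, so P60 was not tested and 2 pairs entered in place of the planned 3. Cells were never replicates. The fits were run on simulated side totals with large known changes. The spread of single cells was not simulated, so this run does not measure power or error here. Alternatives used edgeR 4.0.16, DESeq2 1.42.0, other limits, filters and pseudocounts, and cells left out. The pairs are the collections themselves, and the block is part of the test. Low- and high-M cells of a collection share its labels. No correlation of deviations was computed, since each pair holds 1 value per side.

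Named genes were Opn1sw, Thrb and Ccdc136, list members past the test or size rule, and the 12 genes per direction with the largest smaller difference of both collections under the size rule. Arr3, Gnat2, Pde6h, Nrxn3, Vax2 and the genes of the knockout-lowered list were named after their values were seen. Members and lists were chosen with earlier results of these data known. Near-identical superior P60 libraries 3 and 14 (Pearson r 0.996 across genes) were counted as 1 cell. Some named genes are not reported here. P2 cones, and P8 beyond 1 share, were not used here.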

Additional observations from a re-analysis of the deposited data

Results flagged for a closer look

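The low-M cell of P60 lies outside every test and carried rod RNA, with 13004 CPM of Gnat1 (rod transducin), where the 14 P60 high-M cells had a median of 0.191 CPM. It is 1 cell, and a rod carried along with a cone was not tested.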

How the results depend on the processing

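The count of genes called was 0 and stayed 0 under every setting with a test, apart from a pseudocount of 5 (2 genes, Kpna2 and Rhbdd2, both lower), a filter at a mean of 20 CPM (8 genes) and DESeq2 (321 genes, adjusted p down to 4.6e-06); the cause was not tested. Leaving out a collection left 1 pair and no test. The no replicate block fit called 0 genes and gave 0.30 for Opn1sw and -1.23 for Thrb, the values of the blocked fit. The mean difference of Opn1sw lay above 0 in each setting, from 0.04 to 0.56 with a collection left out and at 0.07 with the P60 cell, whose own difference was -0.40. Within 2m cells numbered 26 to 37 and 38 to 50 it was -0.09 and -0.08. Thrb turned to 0.11 against 2m high-M cells numbered 26 to 50, and with a collection left out it lay between -2.70 and 0.23. Size-rule counts rose by construction with 1 collection, to between 1318 and 1585 lower and between 793 and 1898 higher genes, and with the P60 cell they were 185 lower and 33 higher. Of 522 values of the 29 other named genes, 497 kept their sign and stayed short of the threshold, 21 passed it and 4 changed sign: Ccdc136 was 0.04 in DESeq2 and between -0.21 and 0.01 with a collection left out, and with the P60 cell Eml1 was -0.47 and Thra -0.56; the cause was not tested. The share of low-M cells at P21 was 41.7% when taken as an Opn1mw share of both opsins under 0.01, beside 12.5%. The median of genes per cell at 2m, low-M minus high-M, was -1047 over all cells, 91 within numbers 26 to 37 and 9.5 within 38 to 50; that of the knockout-lowered genes was -11, -8 and -2. The settings with the P60 cell and by cell number were chosen after seeing the data. P21 rests on 3 low-M cells, and each collection may hold few animals.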
